A study of Mus musculus with 4 samples.

Results

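Methionine, choline and polyamine metabolism was taken here as 34 mouse genes, chosen by gene symbol because the experimental food lacked methionine and choline. All 34 were among the 27998 genes counted in every library. They comprise 9 genes of the methionine cycle, 4 of methionine salvage, 8 of polyamine synthesis and turnover, 9 of choline uptake and phospholipid synthesis, and 4 of folate one-carbon metabolism.

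The cells came from the livers of male wild-type C57BL/6 mice that were 8 weeks old when obtained and then spent 6 weeks on 1 of 2 foods, a normal control diet (NCD) or one deficient in methionine and choline (MCD). The deficient food is widely used to give mice a fatty, inflamed liver. Each diet has 2 droplet libraries of live (7AAD-) CD45+ Ly6G- cells with intermediate CD11b, and the 2 descriptions of the sort disagree on whether F4/80 was low or high. The number of mice behind each library is not stated by the labels, so p-values measure only the spread between these libraries.

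S-adenosylmethionine, the methyl donor made from methionine, is the point where these routes meet. Given up as a methyl donor it passes to homocysteine and is rebuilt with folate or betaine; decarboxylated, it supplies the aminopropyl groups of spermidine and spermine, and the salvage pathway returns the sulfur-bearing remainder to methionine. Choline enters phosphatidylcholine through the Kennedy pathway, and the liver can also make phosphatidylcholine by methylating phosphatidylethanolamine.

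The libraries differed strongly in depth. The NCD libraries held 7518597 and 7428431 UMIs (unique molecular identifiers, each counting 1 captured transcript) and the MCD libraries 32975974 and 37772284. The cells kept were 1735, 1786, 2950 and 3138 for NCD replicates 1 and 2 and MCD replicates 1 and 2, and pairs of libraries shared 4 to 12 barcodes. Values below are CPM, the UMIs of a gene relative to all UMIs of the summed cells of a library, always in the order NCD replicate 1, NCD replicate 2, MCD replicate 1, MCD replicate 2. Classes were named from marker lists as Ly6Chi-like and Ly6Clo-like monocytes, C1q macrophage-like cells and lipid-associated macrophage-like cells, and these 4 form a union of 555, 614, 1394 and 1498 cells with 1169511, 1354695, 19731349 and 20360216 UMIs. The lipid-associated class held MCD cells only. In the union the 10 markers of Ly6Chi monocytes summed to 7771, 8345, 7893 and 8181 CPM and the 11 of endothelial cells to 340, 351, 334 and 292. The markers of C1q macrophages summed to 2097, 1802, 4536 and 5443 CPM and those of lipid-associated macrophages to 857, 850, 3263 and 2914. The make-up of the union therefore differed between diets. Alternatives to the union fit left out the lipid-associated class or gave equal weight to each of the other classes. Beyond these alternatives, the part of the make-up in the union results was not tested. In the Ly6Chi-like monocytes the C1q macrophage markers summed to 885, 790, 3884 and 4483 CPM. Lipid-associated macrophage markers there summed to 885, 917, 2755 and 2839 CPM. In the Ly6Clo-like monocytes the C1q macrophage markers summed to 1320, 1465, 4128 and 4963 CPM. Ly6Chi monocyte markers there summed to 3722, 3909, 6199 and 5899 CPM. The part of these differences in the results of both monocyte classes was not tested. The sort also held cDC2-like, endothelial-like, eosinophil-like and NK or ILC-like cells.

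In the union, 12 of the 31 members that passed the low-count filter changed with diet, 8 higher and 4 lower on the MCD diet (edgeR quasi-likelihood test, Benjamini-Hochberg adjusted p under 0.05 over 11029 genes). That is 38.7% of the members tested, against 36.6% of all genes tested, so the share was near the background. By direction the background was 19.5% higher and 17.1% lower. No test compared the roles. Of the 8 polyamine genes 4 were higher and 3 lower, and of the 8 choline genes tested 4 were higher and 1 was lower. None of the 8 methionine cycle, 4 salvage and 3 folate genes tested passed. The median log2 fold change was nevertheless close in the methionine cycle (0.45), folate (0.55) and choline (0.53) genes. The median log2 fold change was 0.34 over the members and 0.06 over all genes tested, and scaling by library totals instead moved the latter to 0.43. Fold changes are therefore relative to the trimmed mean (TMM) scaling, and CPM values, which use totals, do not map onto them directly. Under totals 79.8% of all called genes were higher on MCD, against 53.3% under TMM. Without NCD replicate 1 or without NCD replicate 2 the number of members called in the union was 8.

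**Figure D1:**
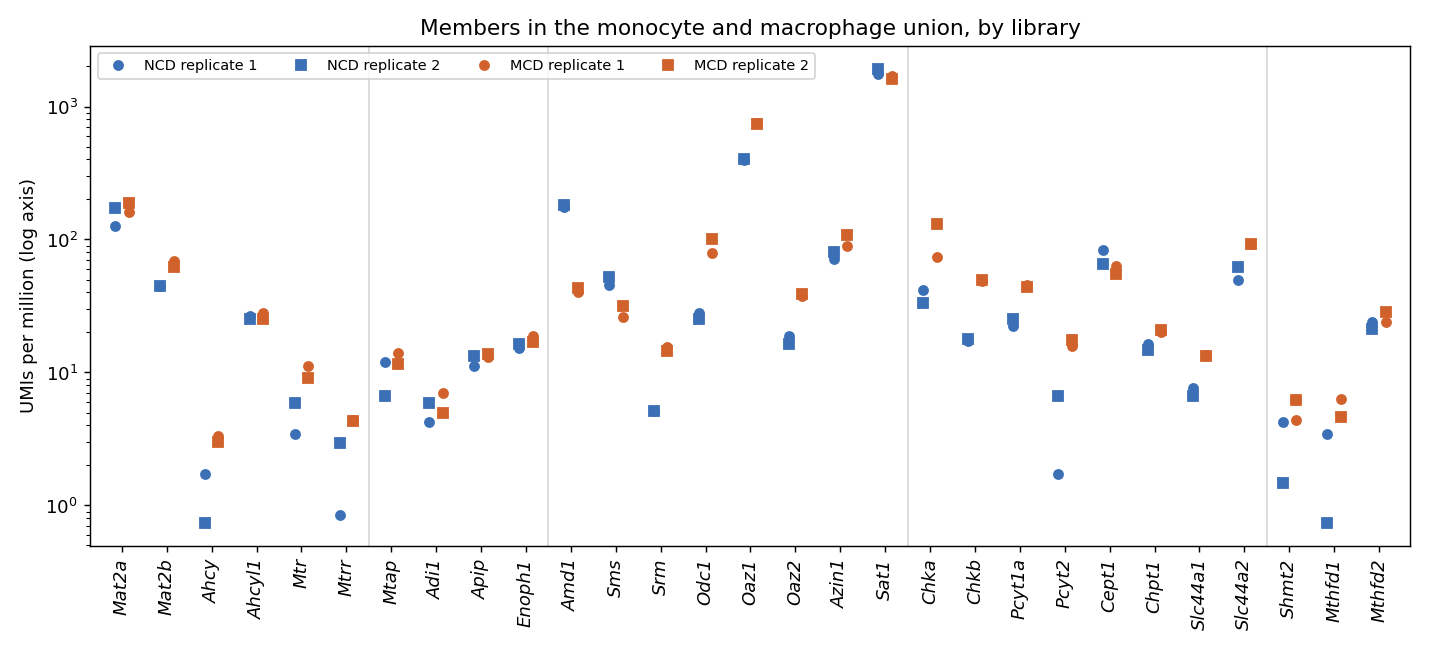
CPM (log axis) of the 29 members with at least 100 UMIs in the monocyte and macrophage union, with 1 point per library; grey lines separate the roles, from left to right methionine cycle, salvage, polyamines, choline and folate. Amd1 and Sms lie lower in both MCD libraries and Odc1, Oaz1, Srm and Chkb higher, while Mat2a overlaps between diets.

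The methionine cycle begins with methionine adenosyltransferase, which joins methionine to ATP. Mat2a, its catalytic subunit outside the liver parenchyma, stood at 127, 173, 161 and 188 CPM. The diets overlapped, and the fitted log2 fold change was −0.16 (SE 0.14, adjusted p = 0.416). Its regulatory partner Mat2b stood at 44.5, 45.0, 69.1 and 61.8 CPM, which the scaling brought to a log2 fold change of 0.17 (SE 0.14, adjusted p = 0.345). Mat2a passed in none of the 7 single classes tested, with values from −0.44 to 0.12, and Mat2b in none of 7. In the union Mat2a passed in 1 of 16 alternatives, without MCD replicate 2 (−0.35, adjusted p = 0.0466). Mat2b, whose CPM did not overlap between diets, passed there under library totals alone (0.55, adjusted p = 0.0106). It also passed in 1 alternative in the Ly6Chi-like monocytes, library totals (0.65, adjusted p = 0.0170), and in 1 over all retained cells, the GC trend removed (0.39, adjusted p = 0.0250).

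The remaining cycle genes were thinly sampled. Ahcy, which cleaves S-adenosylhomocysteine, gave 2, 1, 66 and 61 UMIs, and its relative Ahcyl1 26.5, 25.1, 27.8 and 25.2 CPM. Mtr, the cobalamin-dependent methionine synthase, gave 4, 8, 221 and 186 UMIs and its reductase Mtrr 1, 4, 86 and 88. None passed in the union. Over all retained cells Mtr was higher on MCD (log2 fold change 0.79, SE 0.22, adjusted p = 0.0264), a call that ended without NCD replicate 2 (adjusted p = 0.119) and without MCD replicate 1 (adjusted p = 0.108).

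Genes known chiefly from hepatocytes were near 0. Bhmt, which remethylates homocysteine with betaine, gave 0, 1, 19 and 20 UMIs in the union. Gnmt, the glycine methyltransferase that disposes of surplus methyl groups, gave 4, 0, 41 and 50, and Cbs, the entry to transsulfuration, gave 0, 0, 2 and 0. Pemt, which methylates phosphatidylethanolamine, gave 0, 1, 31 and 13, and Shmt1, the cytosolic serine hydroxymethyltransferase, 0, 0, 11 and 14. Cbs, Pemt and Shmt1 did not pass the low-count filter. Against a floor of 3 counts over the NCD libraries, 1.19 CPM, the MCD level of Shmt1 was 0.624 CPM, so no fold can be given. In the union the summed level of 13 hepatocyte markers was 131.7, 101.1, 225.5 and 246.9 CPM, higher in both MCD libraries. In the Ly6Chi-like monocytes it was 75.3, 76.7, 274 and 273 CPM, all 13 being detected. The diets overlapped in the Ly6Clo-like monocytes, at 263, 121, 146 and 203 CPM. They also overlapped in the C1q macrophage-like cells, at 215, 264, 206 and 240 CPM. The part of these levels in the counts of the liver-type members was not tested. Over all retained cells Bhmt went the other way, at 1.41, 2.12, 0.619 and 0.619 CPM (log2 fold change −1.62, SE 0.42, adjusted p = 0.0205). That call ended without NCD replicate 2 (−1.36), without MCD replicate 1 (−1.62) and without MCD replicate 2 (−1.64). It rests on 18 NCD and 43 MCD UMIs. On NCD the endothelial-like cells had the highest Bhmt mean of the 7 classes, 2.49 CPM. Endothelial markers over all retained cells summed to 2214, 3581, 691 and 1145 CPM. The part of the class mix in the Bhmt difference was not tested.

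The salvage pathway rebuilds methionine from the methylthioadenosine that polyamine synthesis leaves behind. Mtap, its phosphorylase, stood at 12.0, 6.64, 14.0 and 11.5 CPM. Apip, the dehydratase, stood at 11.1, 13.3, 13.1 and 13.8, Enoph1 at 15.4, 16.2, 18.8 and 16.9, and Adi1, the dioxygenase, at 4.28, 5.91, 6.99 and 4.96. Their log2 fold changes in the union lay between −0.24 and 0.11, and none of the 4 passed in any class in which it was tested.

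The polyamine genes included the member with the lowest fold change in the union. Amd1 encodes adenosylmethionine decarboxylase, which commits S-adenosylmethionine to spermidine and spermine. It stood at 174, 183, 40.5 and 43.5 CPM in the union, from 204, 248, 799 and 886 UMIs. Both MCD libraries were far below both NCD libraries. The log2 fold change was −2.46 (SE 0.12, adjusted p = 8.88e-07), or 0.181 of the NCD level after TMM scaling. Without MCD replicate 1, the library counted on a different gene set, it was −2.44. It passed in all 16 alternatives, from −2.78 to −2.09.

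The spermine synthase gene Sms moved in the same direction. Its level was 45.3, 52.4, 26.0 and 31.4 CPM, without overlap between diets (log2 fold change −1.14, SE 0.17, adjusted p = 5.80e-04). It too passed in all 16 alternatives. Spermidine synthase, Srm, which uses the same aminopropyl donor one step earlier, was instead higher on MCD at 5.13, 5.17, 15.6 and 14.5 CPM (log2 fold change 1.17, SE 0.30, adjusted p = 0.0124). The NCD libraries held 6 and 7 Srm UMIs, and the call ended without NCD replicate 2 (adjusted p = 0.0910) and with the trend on GC content removed (0.45, adjusted p = 0.388).

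Odc1, ornithine decarboxylase, makes putrescine and is the regulated first step of the route. It stood at 28.2, 25.1, 79.7 and 102 CPM, with both MCD libraries above both NCD libraries. The log2 fold change was 1.40 (SE 0.19, adjusted p = 3.66e-04), or 2.64-fold, and it passed in all 16 alternatives. Odc1 was thus higher on the diet under which the decarboxylase of the next substrate, Amd1, was lower.

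Antizymes bind ornithine decarboxylase and send it to the proteasome. Oaz1 stood at 395, 405, 748 and 742 CPM (log2 fold change 0.52, SE 0.09, adjusted p = 0.00126) and Oaz2 at 18.8, 16.2, 37.5 and 38.8 CPM (0.75, SE 0.19, adjusted p = 0.0104). Neither overlapped between diets. The Oaz1 difference went to 0.01 (adjusted p = 0.961) once the trend of fold change on GC content was removed, and ribosomal protein genes took 28.7, 27.2, 17.9 and 17.7% of the union's UMIs. The Oaz2 call ended without NCD replicate 2 (0.63) and with the GC trend removed. It also ended with the DESeq2 Wald test and with counts thinned to the smallest library. Azin1, the antizyme inhibitor, stood at 71.8, 80.5, 89.8 and 107 CPM with a log2 fold change of −0.0037 (adjusted p = 0.989). With the GC trend removed it was 0.44 (adjusted p = 0.0428).

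Sat1 encodes the acetyltransferase that marks spermidine and spermine for export or oxidation. In CPM its union values were close, 1754, 1926, 1694 and 1624. Under TMM it was lower on MCD (log2 fold change −0.52, SE 0.08, adjusted p = 8.19e-04), and under library totals it was −0.15 (adjusted p = 0.141). The call for Sat1 in the union therefore depended on the scaling.

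The start regions of Amd1, Sms, Odc1 and Oaz1 are shown because these 4 genes of one route moved in opposite directions. Each runs from 250 bases before to 50 after a RefSeq gene start (GRCm38.p6). Capitals mark matches, on either strand, to the E-box CACGTG, to TGATGNAA, a C/EBP-ATF element, and to TGACNNNGC, the antioxidant response element.
Amd1 (chr10:40302139-40302438, minus strand): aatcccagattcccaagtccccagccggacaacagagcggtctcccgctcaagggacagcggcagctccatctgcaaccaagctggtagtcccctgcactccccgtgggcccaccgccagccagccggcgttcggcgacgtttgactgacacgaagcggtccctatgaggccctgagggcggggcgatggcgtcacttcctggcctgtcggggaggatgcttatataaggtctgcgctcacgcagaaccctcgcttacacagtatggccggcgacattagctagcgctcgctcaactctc
Sms (chrX:157492238-157492537, minus strand): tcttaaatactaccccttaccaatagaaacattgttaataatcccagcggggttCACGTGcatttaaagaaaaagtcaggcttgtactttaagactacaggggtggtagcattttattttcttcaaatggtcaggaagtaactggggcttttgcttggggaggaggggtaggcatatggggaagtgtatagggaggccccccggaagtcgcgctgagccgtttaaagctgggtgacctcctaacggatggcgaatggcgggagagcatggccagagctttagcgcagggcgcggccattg
Odc1 (chr12:17544623-17544922, plus strand): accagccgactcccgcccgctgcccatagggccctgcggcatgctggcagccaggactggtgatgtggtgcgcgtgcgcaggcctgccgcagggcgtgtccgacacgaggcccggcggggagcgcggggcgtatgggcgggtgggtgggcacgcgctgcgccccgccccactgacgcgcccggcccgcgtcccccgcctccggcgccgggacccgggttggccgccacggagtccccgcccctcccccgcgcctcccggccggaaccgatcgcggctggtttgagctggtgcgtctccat
Oaz1 (chr10:80826406-80826705, plus strand): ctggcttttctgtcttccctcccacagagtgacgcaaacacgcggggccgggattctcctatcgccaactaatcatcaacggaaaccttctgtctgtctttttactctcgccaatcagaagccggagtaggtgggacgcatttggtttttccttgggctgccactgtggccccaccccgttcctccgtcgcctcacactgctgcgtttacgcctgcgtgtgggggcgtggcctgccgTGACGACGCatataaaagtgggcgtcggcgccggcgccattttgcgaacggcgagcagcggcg
Sms held an E-box 196 bases before its start and Oaz1 an antioxidant response match beginning 13 bases before its start, while the Amd1 and Odc1 windows held none of the 3 motifs. A second RefSeq start window of Sms (chrX:157491319-157491618, minus strand), not printed, held no E-box. RefSeq start regions were found for 30 of the 34 members, 41 windows in all; Adi1, Azin1, Pcyt2 and Srm had no entry. The E-box was in 7.3% of member windows and in 7.2% of all 32851 windows of this length, TGATGNAA in 0 of 41 and in 4.0%, and TGACNNNGC in 12.2% and 12.4%. A match is a description of letters only.

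Sequence shared with other genes bears on the counts of several members. Of all 90-base stretches in the last 500 bases of Amd1 transcripts, 77.4% also occurred in other annotated genes, namely Amd2, Amd-ps1, Amd-ps3, Amd-ps4 and AC144860.3. The labels do not say how reads from these copies were shared out, so the Amd1 count is uncertain in that respect. Amd2, the copy counted in the files, gave only 0, 2, 4 and 15 UMIs in the union. The share was 41.8% for Oaz1, with the pseudogene Oaz1-ps, 41.6% for Chkb, with Gm44502, 20.4% for Ahcy, 14.5% for Odc1 and 14.3% for Sms. In GRCm38 (GENCODE M21) Amd1 lies at chr10:40287458-40302186 on the minus strand, Sms at chrX:157443855-157492287 on the minus strand, Odc1 at chr12:17544794-17551505 on the plus strand and Oaz1 at chr10:80826656-80829290 on the plus strand. All are protein-coding, and 3′ libraries count reads near the transcript end.

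Choline must be phosphorylated before it can enter the Kennedy pathway. Of the choline kinases, Chka stood at 41.9, 33.2, 74.0 and 130 CPM (log2 fold change 1.08, SE 0.29, adjusted p = 0.0163). The diets did not overlap, but MCD replicate 2 was well above MCD replicate 1. Without MCD replicate 2 the log2 fold change was 0.55, and without NCD replicate 1 or 2 the Chka call ended (adjusted p = 0.130 and 0.288). Chkb stood at 17.1, 17.7, 48.5 and 49.9 CPM (1.12, SE 0.17, adjusted p = 7.11e-04). Replicates lay close together, and Chkb passed in all 16 alternatives.

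CTP-dependent transferases make the activated head groups. Pcyt1a, for choline, stood at 22.2, 25.1, 45.1 and 43.7 CPM (log2 fold change 0.53, SE 0.16, adjusted p = 0.0273). That call ended in 7 of 16 alternatives. Among them were the fits without NCD replicate 1 (0.51), without NCD replicate 2 (0.61) and without MCD replicate 1 (0.48). The Pcyt1a call also ended without the lipid-associated class and with equal weight to each class. It ended with the DESeq2 Wald test and with counts thinned to the smallest library too. Pcyt2, for ethanolamine, gave 2, 9, 312 and 360 UMIs, or 1.71, 6.64, 15.8 and 17.7 CPM (1.57, SE 0.40, adjusted p = 0.0114). It ended without NCD replicate 1 (1.02, adjusted p = 0.0858), and without NCD replicate 2 it was 2.90.

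The last step joins the head group to diacylglycerol. Cept1, which uses choline and ethanolamine, stood at 82.9, 65.7, 62.8 and 54.9 CPM and was lower under TMM (log2 fold change −0.71, SE 0.15, adjusted p = 0.00485). Under library totals Cept1 was −0.33 (adjusted p = 0.0998), with the GC trend removed −0.28 (0.197) and without NCD replicate 1 −0.47 (0.0787). Chpt1, the choline-specific enzyme, stood at 16.3, 14.8, 20.3 and 20.8 CPM and did not pass (0.04, adjusted p = 0.912).

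Of the choline transporter-like genes, Slc44a1 stood at 7.70, 6.64, 13.5 and 13.3 CPM and Slc44a2 at 49.6, 62.0, 91.9 and 92.3 in the union. Neither passed there, with log2 fold changes of 0.54 (adjusted p = 0.182) and 0.34 (adjusted p = 0.0698). Slc44a1 passed there in 2 of 16 alternatives and Slc44a2 in 6 of 16. Slc44a2 was higher within the Ly6Chi-like monocytes, at 38.3, 49.0, 109 and 93.3 CPM (0.71, SE 0.16, adjusted p = 0.0106), in all 11 alternatives run there. It was above 0 in all 6 classes tested and also passed in the cDC2-like (1.02, adjusted p = 0.00547) and C1q macrophage-like cells (1.79, adjusted p = 0.0416). Both of those calls ended without NCD replicate 2 (0.72 and 0.88). Over all retained cells Slc44a2 was higher as well (0.52, adjusted p = 0.00492). Slc44a1 was lower over all retained cells, at 25.2, 43.0, 17.8 and 19.7 CPM (−0.97, SE 0.21, adjusted p = 0.0107). In the union its CPM was higher in both MCD libraries. Since the mix of classes differs between diets, fewer cells of a class and less Slc44a1 per cell cannot be told apart in that total.

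Folate one-carbon enzymes supply methyl groups for homocysteine remethylation. Mthfd2, the mitochondrial dehydrogenase, stood at 23.9, 21.4, 23.9 and 28.4 CPM in the union, with the diets overlapping (log2 fold change −0.16, SE 0.21, adjusted p = 0.573). Mthfd1 gave 4, 1, 125 and 95 UMIs and Shmt2 5, 2, 86 and 126, and neither passed. Mthfd2 passed in the cDC2-like cells alone among the 6 classes in which it was tested, at 16.6, 24.8, 57.0 and 58.0 CPM (0.79, SE 0.24, adjusted p = 0.0197). That call ended without NCD replicate 1, NCD replicate 2 or MCD replicate 2, with adjusted p of 0.205, 0.0550 and 0.0534. Whether the cDC2-like cells differ from the other classes in this was not tested. Markers of proliferating cells summed to 63.3, 59.2, 551 and 455 CPM in the cDC2-like cells, and their part in the Mthfd2 difference was not tested.

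**Figure D2:**
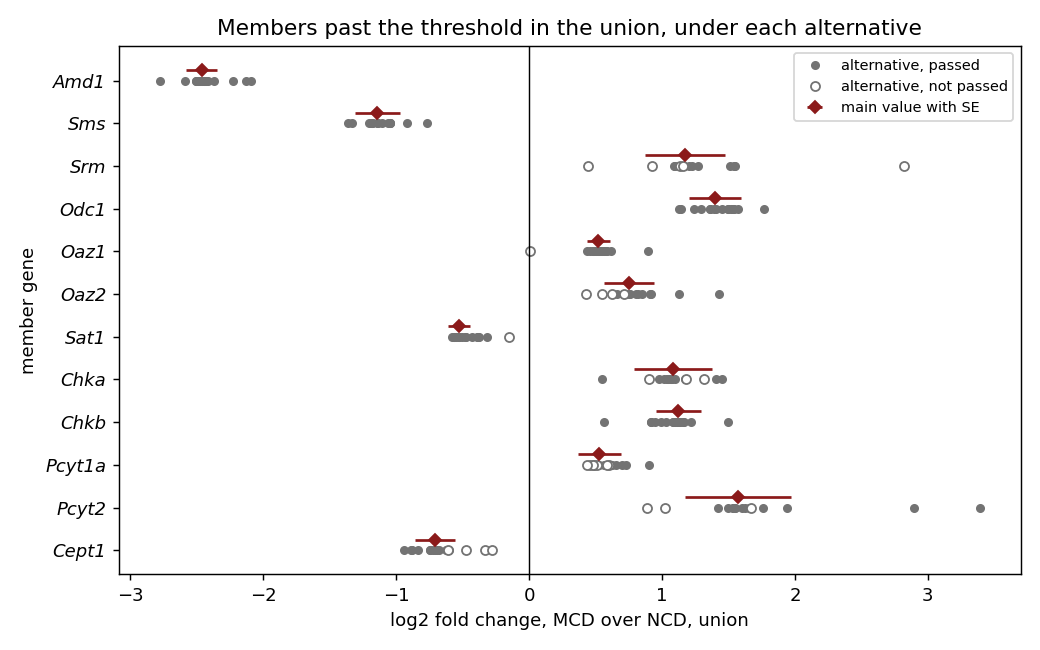
Log2 fold change, MCD over NCD, in the union for the 12 members that passed the threshold: red diamonds give the value with its SE, grey points each alternative that passed and open points each that did not. Amd1, Sms, Odc1 and Chkb passed in all 16 alternatives, and the Oaz1 point at 0.01 is the fit with the GC trend removed.

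Across cell classes, Amd1 passed more often than any other member, followed by Odc1, Oaz1 and Sat1 with 5 classes each. Amd1 was lower, past the threshold, in all 7 single classes tested, with log2 fold changes from −3.04 to −1.89. In the Ly6Chi-like monocytes Amd1 stood at 186, 164, 43.4 and 44.3 CPM, in the cDC2-like cells at 154, 156, 39.3 and 39.0, and in the endothelial-like cells at 119, 106, 34.3 and 30.4. In none of the 7 classes did the diets overlap. In the NK or ILC-like cells it stood at 446, 446, 88.6 and 122 CPM, and that call ended without MCD replicate 2 (adjusted p = 0.188). Among these classes the NK or ILC-like cells held the highest Amd1 level in both diets.

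The other polyamine genes followed in fewer classes. Sms was below 0 in all 7 and passed in 4, the Ly6Chi-like (−1.50, adjusted p = 5.33e-04), Ly6Clo-like (−1.03, adjusted p = 0.0318), cDC2-like (−1.15, adjusted p = 8.46e-05) and endothelial-like cells (−0.73, adjusted p = 0.0158). Odc1 passed in 5 of 7. In the C1q macrophage-like cells it stood at 7.42, 29.4, 87.1 and 112 CPM (2.58, SE 0.54, adjusted p = 0.00342), from only 1 and 3 NCD UMIs, and the Odc1 call there ended without either NCD replicate (adjusted p = 0.188 and 0.0645). In the cDC2-like cells Odc1 stood at 16.6, 16.5, 89.5 and 93.1 CPM (1.74, SE 0.23, adjusted p = 3.31e-05) and passed in every alternative run. The make-up of the cDC2-like class differed between diets. Its 7 markers of proliferating cells summed to 63.3, 59.2, 551 and 455 CPM, and a separate proliferating cluster, of 39 and 45 cells, was found on NCD only. In the same class the markers of cDC1 summed to 355, 270, 1148 and 968 CPM, those of migratory DCs to 219, 182, 609 and 564, and those of lipid-associated macrophages to 466, 466, 1740 and 1703. Their part in the cDC2-like results was not tested. In the migratory DC-like cells the diets overlapped, at 69.6, 20.6, 37.8 and 82.6 CPM.

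**Figure D3:**
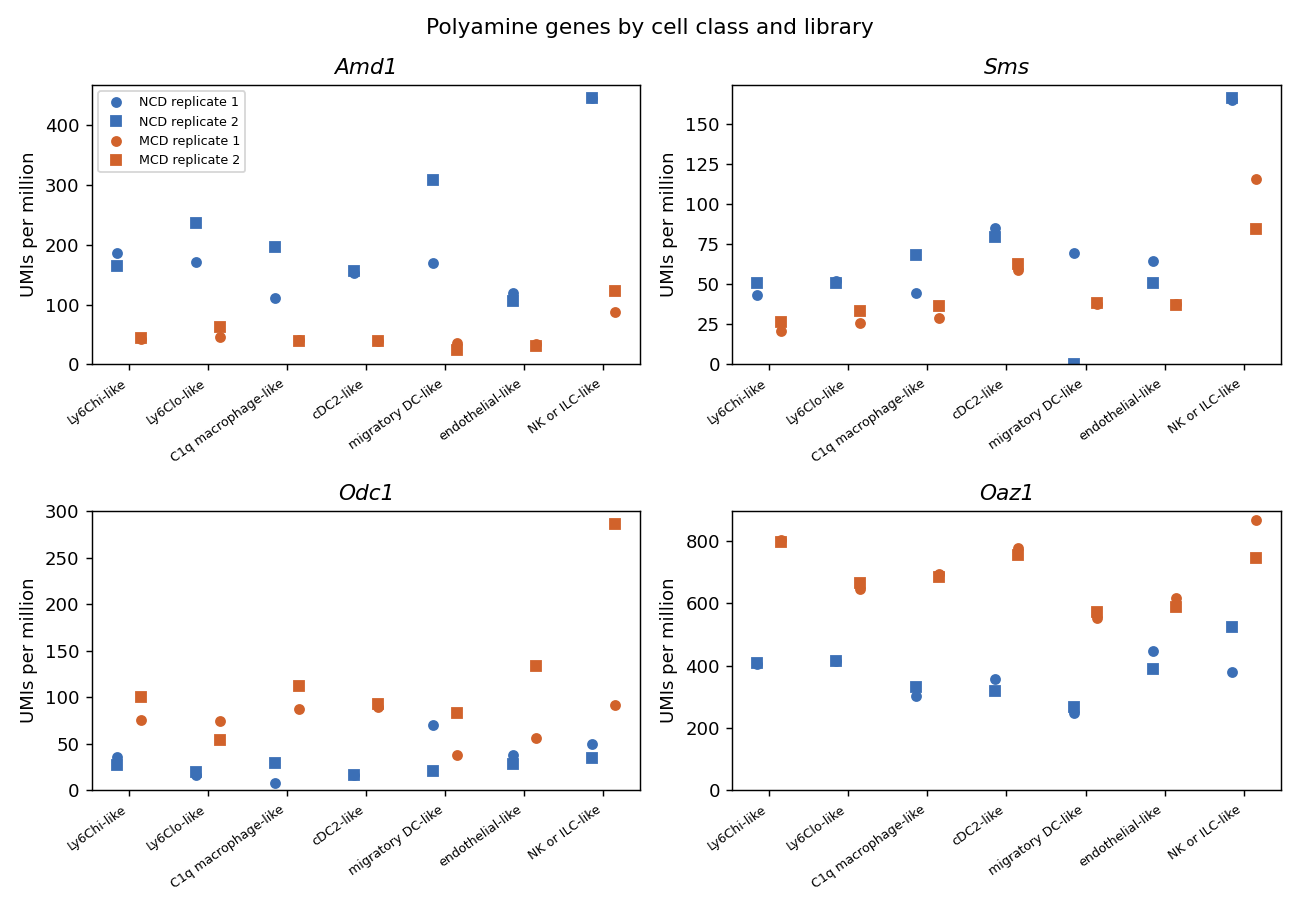
CPM of Amd1, Sms, Odc1 and Oaz1 in each cell class with 20 or more cells in every library, with 1 point per library and axes that start at 0. Amd1 lies lower on MCD in all 7 classes and Oaz1 higher in all 7, the latter without regard to the GC trend.

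Library-specific values limit some of these calls. The Odc1 call in the Ly6Chi-like monocytes (35.7, 26.6, 75.8 and 100 CPM, log2 fold change 1.01) ended without NCD replicate 2 (0.77, adjusted p = 0.119). In the Ly6Clo-like monocytes Odc1 (1.53) ended without NCD replicate 1 or 2 (adjusted p = 0.0765 and 0.0567), and in the endothelial-like cells (1.52) without MCD replicate 2 (0.64, adjusted p = 0.0809). Sms ended in the Ly6Clo-like monocytes without NCD replicate 1, NCD replicate 2 or MCD replicate 1, with adjusted p of 0.137, 0.166 and 0.101. In the endothelial-like cells it ended without NCD replicate 1 (adjusted p = 0.105).

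Sat1 passed in 5 of the 7 classes, and in the NK or ILC-like cells it had its lowest fold change. There it stood at 578, 910, 379 and 371 CPM (log2 fold change −1.37, SE 0.23, adjusted p = 2.70e-04), a call that ended without MCD replicate 1 or 2 (adjusted p = 0.111 and 0.230). In the endothelial-like cells Sat1 stood at 1614, 1824, 1183 and 994 CPM, without overlap, and passed in all 11 alternatives (log2 fold change −0.78, SE 0.14, adjusted p = 0.00177). In the Ly6Chi-like monocytes the diets overlapped at 1432, 1603, 1639 and 1582 CPM. The value was −0.41 under TMM (adjusted p = 0.00749) but 0.09 under library totals, so the direction of Sat1 there turned with the scaling. In the cDC2-like cells it likewise went from −0.68 to 0.03.

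Counts of members called, set beside all genes, varied by class. In the Ly6Chi-like monocytes 8 of 30 members tested passed, or 26.7% against 28.3% of all genes, and in the Ly6Clo-like 9 of 17, or 52.9% against 27.3%. The Ly6Clo-like count fell to 3 without NCD replicate 2, to 5 without NCD replicate 1 or without MCD replicate 2, and to 2 with the DESeq2 Wald test. In the C1q macrophage-like cells 4 of 29 passed, or 13.8% against 14.1%, and 2 did without NCD replicate 2. The NCD part of this class was 52 and 45 cells, and as in every class the diets were clustered separately. In this class the C1q macrophage markers summed to 10590, 12130, 5814 and 7471 CPM. Ly6Chi monocyte markers summed to 2003, 1517, 5003 and 4538 CPM. The summed level of 10 Kupffer cell markers was 579, 2847, 61.2 and 72.1 CPM. The part of these levels in the differences of the class was not tested.

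Outside the monocyte and macrophage classes the counts were as follows. In the cDC2-like cells 11 of 29 members tested passed, or 37.9% against 30.5% of all genes, and 7 without NCD replicate 2. In the migratory DC-like cells 4 of 20 passed, or 20% against 11.1%, and 2 without NCD replicate 1, NCD replicate 2 or MCD replicate 2. In the endothelial-like cells 8 of 28 passed, or 28.6% against 29%, and 4 without MCD replicate 2. In the NK or ILC-like cells 2 of 10 passed, or 20% against 19.2%, and none without MCD replicate 2. Over all retained cells 14 of 33 passed, or 42.4% against 49.1%. The class by diet term between Ly6Chi-like and Ly6Clo-like monocytes called 0 of 24 members, against 4.71% of all genes, and 0 had an unadjusted p under 0.05 (edgeR, with library as a block); this does not show that the 2 classes responded alike.

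**Figure D4:**
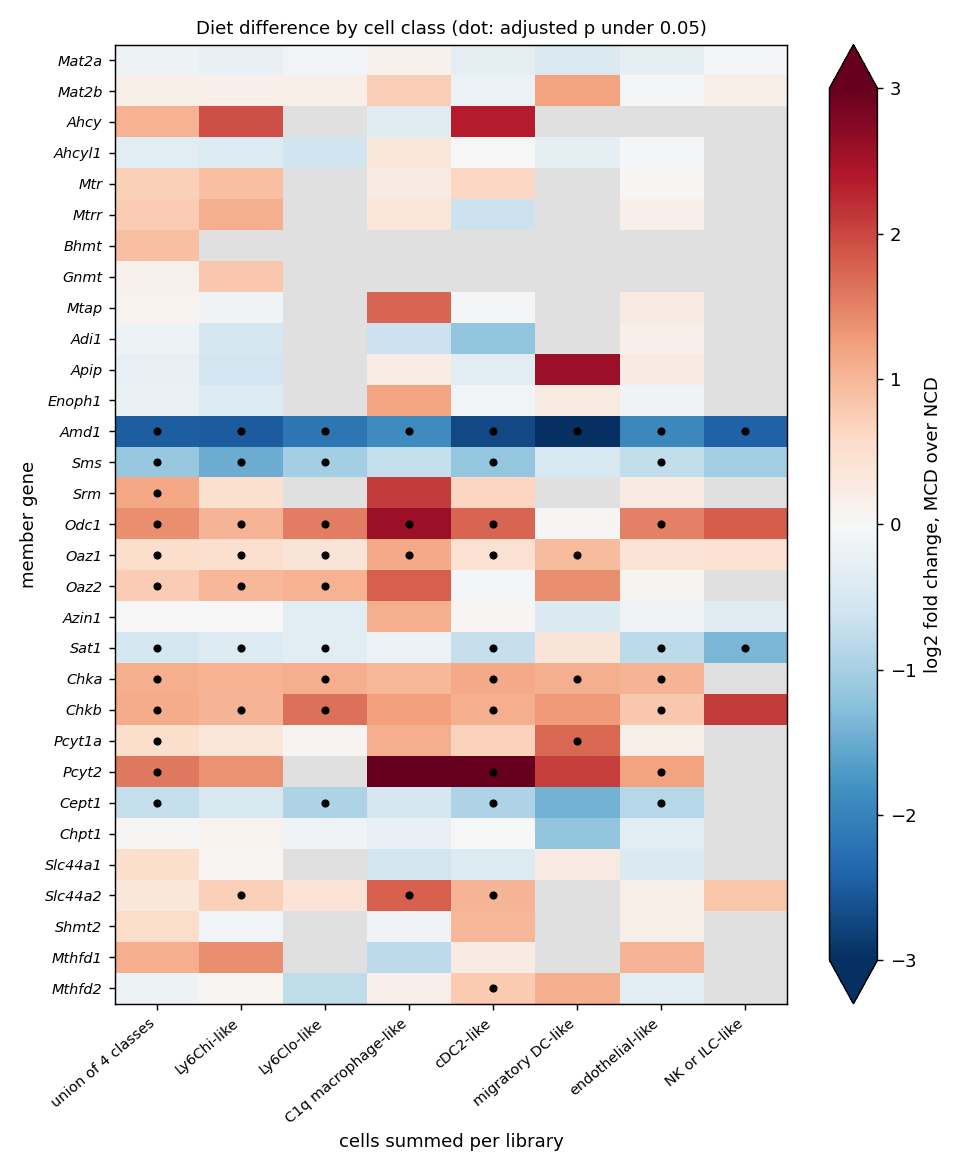
Log2 fold change, MCD over NCD, of each member (vertical) in the union and in 7 cell classes (horizontal), with dots where the adjusted p was under 0.05 and grey cells where the member was not tested. Amd1 is blue with a dot in every column, and the 2 darkest red cells of Pcyt2 lie at 2.99 or above, where NCD held 0 to 4 UMIs.

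Among the choline genes the direction differed from gene to gene across classes. Chka was above 0 in all 6 classes in which it was tested and passed in 4, and Chkb was above 0 in all 7 and passed in 4. Chka was higher in the Ly6Clo-like (1.09), cDC2-like (1.12), migratory DC-like (1.09) and endothelial-like cells (1.02). Each of those Chka calls ended when 1 library was left out, with adjusted p up to 0.0772 without NCD replicate 2 in the Ly6Clo-like, 0.166 without NCD replicate 1 in the cDC2-like (0.0632 without NCD replicate 2), 0.166 without MCD replicate 2 in the migratory DC-like (0.101 and 0.0794 without NCD replicate 1 and 2) and 0.209 without MCD replicate 2 in the endothelial-like cells. Cept1 was below 0 in all 6 classes in which it was tested and lower past the threshold in 3, while Chpt1 was below 0 in 5 of 6 and Slc44a1 in 3 of 5, with no call. The 3 Cept1 calls all ended with the GC trend removed. The Ly6Clo-like call (−0.92) also ended without NCD replicate 1 or MCD replicate 2, under library totals and with the DESeq2 Wald test. The cDC2-like call (−0.91) ended without NCD replicate 1 and under library totals, and the endothelial-like call (−0.86) without NCD replicate 2. In the migratory DC-like cells, where its level was highest in both diets, Chka stood at 109, 103, 221 and 296 CPM.

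Chkb passed in the Ly6Chi-like (1.03), Ly6Clo-like (1.65), cDC2-like (1.09) and endothelial-like cells (0.81). In the Ly6Chi-like monocytes it stood at 16.6, 18.1, 51.6 and 48.8 CPM, and no left-out library ended the call, though it ended with the GC trend removed (adjusted p = 0.131). The other Chkb calls ended without 1 library, namely NCD replicate 2 or MCD replicate 2 in the Ly6Clo-like (adjusted p = 0.210 and 0.0546), NCD replicate 1 in the cDC2-like (0.443) and MCD replicate 2 in the endothelial-like cells (0.0698). Pcyt2 rose in the cDC2-like cells from 2 and 2 NCD UMIs to 161 and 173 (2.08, 2.75, 34.4 and 28.6 CPM, log2 fold change 2.99, SE 0.48, adjusted p = 2.11e-04), in every alternative run. As for Odc1, this went with higher proliferating, cDC1 and migratory DC markers in the class, and their part was not tested. Pcyt2 also passed in the endothelial-like cells (1.205, SE 0.40, adjusted p = 0.0374). That call ended in 4 of 10 alternatives, among them without NCD replicate 1 (0.89) and without MCD replicate 2 (0.74). In the C1q macrophage-like cells Pcyt2 had no NCD UMI and did not pass (adjusted p = 0.0556). The MCD level there was at least 1.71-fold that of a floor of 3 counts over the NCD libraries.

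The MCD-only lipid-associated macrophage-like cells, 109 and 62 cells, allow no diet comparison. Set beside the MCD cells of the 7 classes tested, they held the lowest mean of Amd1 (25.9 CPM, from 22.4 and 29.4) and of Chkb (31.1 CPM). Their mean was the highest for Azin1 (125 CPM), Enoph1 (25.2 CPM), Adi1 (14.3 CPM) and the thinly sampled Shmt1 (2.72 CPM). It was also the highest for Ahcyl1 (49.5 CPM), close to the 48.8 CPM of the endothelial-like cells. The eosinophil-like MCD cells were lower still in Amd1, at 17.5 and 15.8 CPM. An unnamed NCD cluster of 112 and 41 cells shared most of their leading genes, Retnlg, G0s2 and Ccr3 among them, but had 2 of the 3 eosinophil markers that naming required, so no diet comparison was made. Odc1 in them was 74.7 and 141 CPM, a mean within the range of those 7 MCD classes. Each of these is a description of 2 libraries.

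Further genes of the same routes, 110 listed with earlier results of these data known, were counted in the same way. Of 107 in the files 79 were tested in the union, and 24 were higher and 10 lower, 43% against 36.6% of all genes tested. Without NCD replicate 2 the count was 17 in place of 34, and it was 12 with equal weight to each class and 21 with no filter on low counts. The listed polyamine genes gave 7 higher and 1 lower of 11 tested. Eif5a, the translation factor that carries the spermidine-derived residue hypusine, stood at 139, 143, 393 and 396 CPM (log2 fold change 1.11, SE 0.10, adjusted p = 2.52e-05). Replicates were nearly equal, and the call held in all 16 alternatives. The hypusine enzymes Dohh (7.70, 3.69, 28.8 and 29.5 CPM, 2.02, adjusted p = 5.70e-04) and Dhps (13.7, 8.86, 26.5 and 28.4 CPM, 0.93, adjusted p = 0.0145) were higher as well. The Dhps call ended in 5 of 16 alternatives, among them without NCD replicate 2. The Dohh call ended in 1 of 16, equal weight to each class (adjusted p = 0.0631).

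Arg1, the arginase that supplies ornithine, had no UMI in the NCD union and 46 and 67 in MCD, at least 2.37-fold higher against the 3-count floor; the call ended without NCD replicate 1 and without NCD replicate 2. Mat1a, the liver methionine adenosyltransferase, gave 0, 0, 16 and 8 UMIs. Its MCD levels, 0.811 and 0.393 CPM, were below the NCD floor of 1.19 CPM, so no fold can be given. Got1, a transaminase that can complete methionine salvage, stood at 20.5, 19.9, 88.3 and 106 CPM (1.89, SE 0.18, adjusted p = 3.64e-05).

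Of 11 methyltransferases tested that use S-adenosylmethionine 2 were higher and 1 lower. Prmt1, an arginine methyltransferase, stood at 19.7, 19.9, 60.1 and 54.4 CPM (log2 fold change 1.16, adjusted p = 4.47e-04) and Dnmt3a, a DNA methyltransferase, at 12.0, 11.8, 56.5 and 41.7 CPM (1.67, adjusted p = 5.70e-04). The Dnmt3a call ended in 1 of 16 alternatives, equal weight to each class (adjusted p = 0.161). The serine synthesis genes Phgdh (0, 2, 32 and 29 UMIs) and Psat1 (8.55, 8.86, 7.10 and 7.81 CPM) did not pass, with adjusted p of 0.691 and 0.160.

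Among listed genes that fell, Gdpd3, a lysophospholipase D, had the smallest adjusted p. It stood at 177, 166, 66.3 and 67.4 CPM (log2 fold change −1.73, SE 0.11, adjusted p = 3.69e-06) and passed in all 16 alternatives. Sgms1, a sphingomyelin synthase that consumes phosphatidylcholine, stood at 149, 173, 112 and 121 CPM (−0.84, SE 0.12, adjusted p = 3.60e-04). Ggh (−0.50), Ahcyl2 (−0.62) and Etnk1 (−0.58) were lower under TMM, and each of these calls ended under library totals and without NCD replicate 2.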

How the data were processed

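The authors deposited UMI counts per gene and cell barcode from 4 liver libraries, made with Cell Ranger on mm10 per the submitters' processing notes; the version was 3.0.2 per the file headers. Libraries used the single cell 3′ v3 kit per the labels' protocols. The labels do not give the settings of cell calling. MCD replicate 1 lists 27998 genes and the other libraries 28692; analyses used the former.

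Kept were 9609 of 12306 barcodes, those in which 200 genes or more were seen and mitochondrial UMIs made up no more than 10%; 37.2, 33.6, 11.6 and 9.44% of barcodes exceeded 10%. No doublets were called or removed. Each diet was clustered separately (2000 variable genes, 30 components, 15 neighbours, Leiden resolution 1.0; scanpy 1.11.5, leidenalg 0.10.2), giving 13 and 14 clusters. A cluster took the name of the marker list, of 24, with most genes among its top 50 by CPM ratio (20 added, genes in at least 20% of its cells), given at least 3 there, 1 in the top 10 and no other list ahead in the top 10; 1447 cells stayed unnamed. Joint clusterings were tried first; the separate clustering and the 20% limit were settled after seeing clusters, before member values in these classes were computed. Class names rest on transcripts only. Unnamed NCD clusters of 520 and 70 cells and an unnamed MCD cluster of 630 cells were matched best to the Ly6Chi monocyte list. They had 2, 3 and 1 of its genes in the top 50 and 0 in the top 10, so they stayed outside the union. An alternative added all unnamed clusters to the union.

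Counts were summed per library and class and tested with the edgeR 4.0.16 quasi-likelihood test (R 4.3.3, limma 3.58.1), TMM scaling, filterByExpr and Benjamini-Hochberg adjustment at 0.05. DESeq2 1.42.0 was an alternative. The procedure was checked on simulated counts. Standard errors are from the fit; CPM uses library totals, and depth sets its precision. The members and lists were chosen with earlier results of these data known. All members may be named; of the further genes, the 5 with smallest adjusted p in each direction plus Amd2, Mat1a, Dhps, Eif5a, Phgdh, Psat1 and Arg1. No label names a batch, so diet and preparation cannot be told apart. Positions are from GENCODE M21.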

Additional observations from a re-analysis of the deposited data

How the results depend on the processing

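Of the 12 members called in the union, Amd1, Sms, Odc1 and Chkb passed in all 16 alternatives, and of 72 calls of a member in a comparison 23 passed in all alternatives run. The cause of each change below was not tested.

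For counts of calls, leaving out 1 library gave 8 to 13 members in the union, 8 to 10 in the Ly6Chi-like, 3 to 8 in the Ly6Clo-like, 2 to 3 in the C1q macrophage-like, 7 to 10 in the cDC2-like, 2 to 3 in the migratory DC-like, 4 to 8 in the endothelial-like and 0 to 2 in the NK or ILC-like cells, 11 to 13 over all cells, and 17 to 30 further pathway genes; the class by diet term stayed at 0. With the GC trend removed, a choice added after seeing the data for single classes, the counts were 5 in the Ly6Chi-like, 3 in the Ly6Clo-like, 2 in the C1q macrophage-like, 1 in the migratory DC-like and 4 in the endothelial-like cells. Over all genes 2250, 1161, 1008, 438 and 1783 were then called in these classes. The main test called 2821, 1601, 1345, 602 and 2763. The DESeq2 Wald test gave 2 in the Ly6Clo-like, 2 in the migratory DC-like and 4 in the endothelial-like cells. Library totals gave 18 in the cDC2-like and 5 in the NK or ILC-like cells. Over all genes that choice called 5163 and 615 in these classes, against 2847 and 496 in the main test. Thinning to the smallest library gave 2 in the C1q macrophage-like and 1 in the migratory DC-like cells. Calls over all genes were not counted for the Wald test, thinning or left-out libraries. Of the further pathway genes 21 passed with no filter and 12 with equal weight to each class, fewer than the 34 of the main test.

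Listed here are turns of direction in which the main or the alternative value passed the threshold. Some values that passed in neither also changed sign. Bhmt turned in the union at Leiden resolution 0.5 (−1.86). Azin1 turned in the union with the GC trend removed (0.44) and in the Ly6Chi-like monocytes under library totals (0.47). Sat1 turned under library totals in the Ly6Chi-like (0.085) and cDC2-like cells (0.026). Mat2a (0.43) and Mat2b (0.54) turned in the cDC2-like cells under library totals. Oaz1 turned with the GC trend removed in the Ly6Chi-like (−0.0046), Ly6Clo-like (−0.15), C1q macrophage-like (−0.0093) and cDC2-like cells (−0.032).

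With the replicate number as a block, 12 members were called in the union and 2 in the migratory DC-like cells. The correlation of deviations between same-numbered libraries was 0.0184 in the union and 0.171 over all retained cells, and from −0.0263 to 0.0461 in single classes. With 2 numbers per diet and no label that pairs them, the numbers were not taken to pair the samples. Where the lone library of a diet remained, it was assumed to vary like the other diet's. Depth limits the NCD values most: the union held 2524206 NCD UMIs, so 3 counts equal 1.19 CPM, against 0.0748 CPM in MCD; counting error is all that this covers.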
